A study of Hernandia nymphaeifolia with 9 samples.

Results

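Among the 315331 assembled genes measured in leaves of Hernandia nymphaeifolia, a coastal tree that grows beside mangroves, 167 kept a nearly constant share of the library in salt water and in fresh water and were read almost wholly from 1 isoform. They are called the steady single-isoform genes here. Counts of all isoforms of an assembled gene were summed and scaled to 1000000 counts per library (CPM). A gene was taken when its mean over the 9 libraries was at least 30 CPM, its control mean was under 500 CPM, its highest library was at most 1.3 times its lowest, and 1 and the same isoform held at least 85% of its counts in every library. All of these criteria were read from the same 9 libraries that the study compared. The steadiness of the members is therefore what they were chosen for, and it is described without a test.

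Leaf RNA came from 2-year-old seedlings that stood in water up to the branches for 3 h of each 12 h cycle, with 1 library per seedling. The 3 groups held 3 seedlings each and had 300 mM NaCl for 14 days, 300 mM NaCl for 7 days, or fresh water as the control. All seedlings, the controls included, went through the same tidal flooding, and the labels leave out the sampling day of the controls. Total estimated counts were 13166552 to 14201943 per library, and 3 counts in a library were worth 0.211 to 0.228 CPM. In the genes of the level criteria, the median size of the log2 difference between 14 d replicates 1 and 2 was 0.10, against 0.17 and 0.19 from replicate 3 to each of them, and the other pairs of libraries within a group lay between 0.10 and 0.22. In bulk leaf RNA, fewer cells of a type and less RNA per cell cannot be told apart.

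Salt water withdraws water from plant cells and loads them with sodium and chloride, and leaves answer with wide changes in transcription. Genes whose transcripts keep a constant share through such a stress are of practical use, because quantitative PCR measures other transcripts relative to them. Alternative splicing can give 1 gene several isoforms, and a gene read from a single isoform can be measured with 1 primer pair wherever the primers lie on it. The identifiers of this assembly came with no gene names, so neither the functions of the members nor leaf marker genes could be looked up. Counts were not divided by transcript length, so CPM values are compared between libraries and not between genes.

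The level criteria alone were met by 7248 genes, called the level range here. In the level range 2031 genes were single-isoform genes by the same criterion, and 780 genes stayed within the 1.3 limit, which is 10.8% of the range. The 167 members are the genes that met both, or 2.30% of the range. Of the 2031 single-isoform genes 8.22% were within the limit, and of the other 5217 genes 11.8%. By mean level, the members were 52 of 798 single-isoform genes between 30 and 50 CPM, 70 of 732 between 50 and 100 CPM, 34 of 356 between 100 and 200 CPM and 11 of 135 between 200 and 500 CPM. No gene at or above the control limit of 500 CPM met the other criteria. The median ratio of highest to lowest library was 1.70 among all single-isoform genes of the range, and 353 of them reached a ratio of 3 or more.

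**Figure D1:**
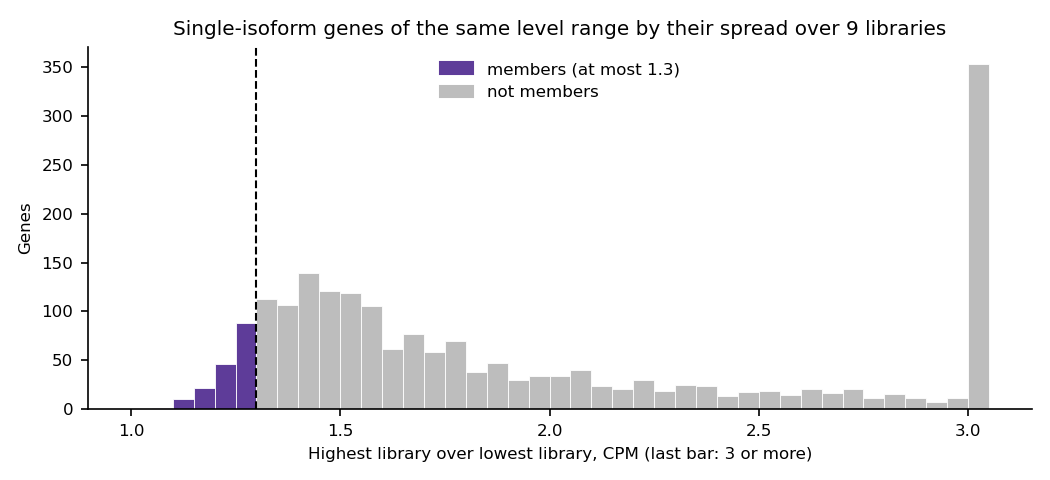
Number of single-isoform genes of the level range (vertical axis) by the ratio of their highest to their lowest library in CPM (horizontal axis, last bar for ratios of 3 or more), with members in purple, other genes in grey and the limit of 1.3 as a dashed line. The members form the lower flank of a single distribution that continues across the limit, and the last bar holds 353 genes.

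The steadiest member was TRINITY_DN0_c2_g2, read from 1 isoform. It had 143, 134 and 134 CPM at 14 d, 134, 138 and 136 CPM at 7 d, and 134, 139 and 130 CPM in the controls, a ratio of 1.09 between the highest and the lowest library. Its group means were 137 ± 5.05 CPM at 14 d, 136 ± 2.17 CPM at 7 d and 135 ± 4.41 CPM in the controls (SD, n = 3 each). The 3 groups overlapped, and the distance from the lowest to the highest library within each group was wider than that between their means.

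TRINITY_DN5945_c0_g1 had 34.6, 35.3 and 37.0 CPM at 14 d, 36.0, 37.5 and 37.0 CPM at 7 d, and 34.5, 36.3 and 38.0 CPM in the controls, a ratio of 1.1001. Its counts, 498 per library on average, were the only ones among the members that varied less than counting alone gives, with a chi-square per degree of freedom of 0.591. All 3 groups overlapped here too. TRINITY_DN571_c0_g2 had 58.4, 60.7 and 58.0 CPM at 14 d, 56.7, 56.3 and 55.3 CPM at 7 d, and 55.5, 58.4 and 61.2 CPM in the controls. The 7 d libraries of this gene lay below the 14 d libraries and at the lower end of the control range. TRINITY_DN6339_c0_g2, the fourth by ratio, had 72.7, 66.3 and 69.1 CPM at 14 d, 67.0, 64.5 and 72.9 CPM at 7 d, and 66.4, 66.3 and 65.3 CPM in the controls. In contrast to the first 3 it had 3 isoforms, of which the leading one held at least 89.6% of the counts in every library.

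Over all 167 members the ratio of highest to lowest library had a median of 1.25. It was at most 1.15 for 11 members, at most 1.2 for 33 and above 1.25 for 88, so that most members lay between 1.2 and the limit. The coefficient of variation over the 9 libraries ran from 2.70% to 10.3%, with a median of 7.59%, and counting alone would give a median of 3.31% at the members' 418 to 5673 counts per library. The chi-square per degree of freedom of the counts had a median of 4.87 among members and 24.96 in the level range. It was under 2 for 12 members and 82 genes of the range. Estimated counts are not independent molecules, so this sets the spread beside counting error only.

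Members with many counts also varied more than counting gives. TRINITY_DN7284_c0_g1, with 5041 counts per library, had 372, 369 and 320 CPM at 14 d, 371, 360 and 358 CPM at 7 d, and 406, 356 and 385 CPM in the controls. Its coefficient of variation was 6.35%, against 1.41% from counting. TRINITY_DN4771_c0_g2, with 4381 counts per library, had 324, 318 and 308 CPM at 14 d, 295, 336 and 326 CPM at 7 d, and 335, 327 and 298 CPM in the controls. TRINITY_DN7047_c0_g1, with 3250 counts per library, had 240, 246 and 238 CPM at 14 d, 233, 220 and 224 CPM at 7 d, and 252, 224 and 250 CPM in the controls. In each of these 3 genes the control libraries spanned values both above and below those of a salt group. Within the members, the ratio did not follow the counts (Spearman rho 0.07 over 167 genes measured in the same libraries, as a description). The rule cuts both ratio and level, so this cannot show whether spread depends on counts in other genes.

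At the other end, 2 members only just met the limit. TRINITY_DN1085_c0_g1, the last member by ratio (1.299996), had 197, 194 and 205 CPM at 14 d, 221, 222 and 224 CPM at 7 d, and 172, 187 and 184 CPM in the controls. By CPM from total counts its 3 groups did not overlap, the 7 d libraries were highest, and the difference of 7 d from control, 0.30 ± 0.04 (SE) on the log2 scale, was the most positive among the members. Under TMM, edgeR's scaling for composition, 14 d replicate 2 falls below control replicate 3, so that 14 d and control overlap. TRINITY_DN5941_c0_g1 had 69.1, 66.0 and 76.8 CPM at 14 d, 76.0, 71.7 and 73.4 CPM at 7 d, and 59.1, 60.3 and 72.9 CPM in the controls. Its groups overlapped, and control replicate 3 lay well above the other 2 controls. Just outside the limit, TRINITY_DN5557_c0_g1 (30.6 to 37.8 CPM at 14 d, 33.5 to 37.2 CPM at 7 d, 29.1 to 31.8 CPM in controls) and TRINITY_DN0_c21_g1 (31.3 to 33.1 CPM at 14 d, 30.0 to 35.2 CPM at 7 d, 27.1 to 31.0 CPM in controls) met every other criterion, with ratios of 1.3004 and 1.3009.

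For the mean level, the members nearest the bound were TRINITY_DN334_c0_g1 at 30.4 CPM and TRINITY_DN36760_c0_g3 at 30.5 CPM. The nearest genes below it that met all other criteria were TRINITY_DN10402_c0_g4 at 29.8 CPM and TRINITY_DN3128_c0_g2 at 29.6 CPM.

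The members named next had the most extreme differences from the controls. TRINITY_DN7180_c0_g2 had 90.2, 96.4 and 90.4 CPM at 14 d, 80.2, 75.1 and 81.5 CPM at 7 d, and 86.0, 91.2 and 95.4 CPM in the controls, so that the 7 d libraries alone were low, by -0.20 ± 0.06 (SE) against control on the log2 scale. TRINITY_DN1873_c0_g3 had 232, 225 and 247 CPM at 14 d, 198, 224 and 214 CPM at 7 d, and 190, 195 and 196 CPM in the controls, and both salt groups lay above the controls, by 0.28 ± 0.04 (SE) at 14 d. TRINITY_DN4124_c4_g1 had 105, 103 and 98.3 CPM at 14 d, 109, 103 and 110 CPM at 7 d, and 124, 114 and 125 CPM in the controls, with both salt groups below the controls, by -0.24 ± 0.05 (SE) at 14 d.

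**Figure D2:**
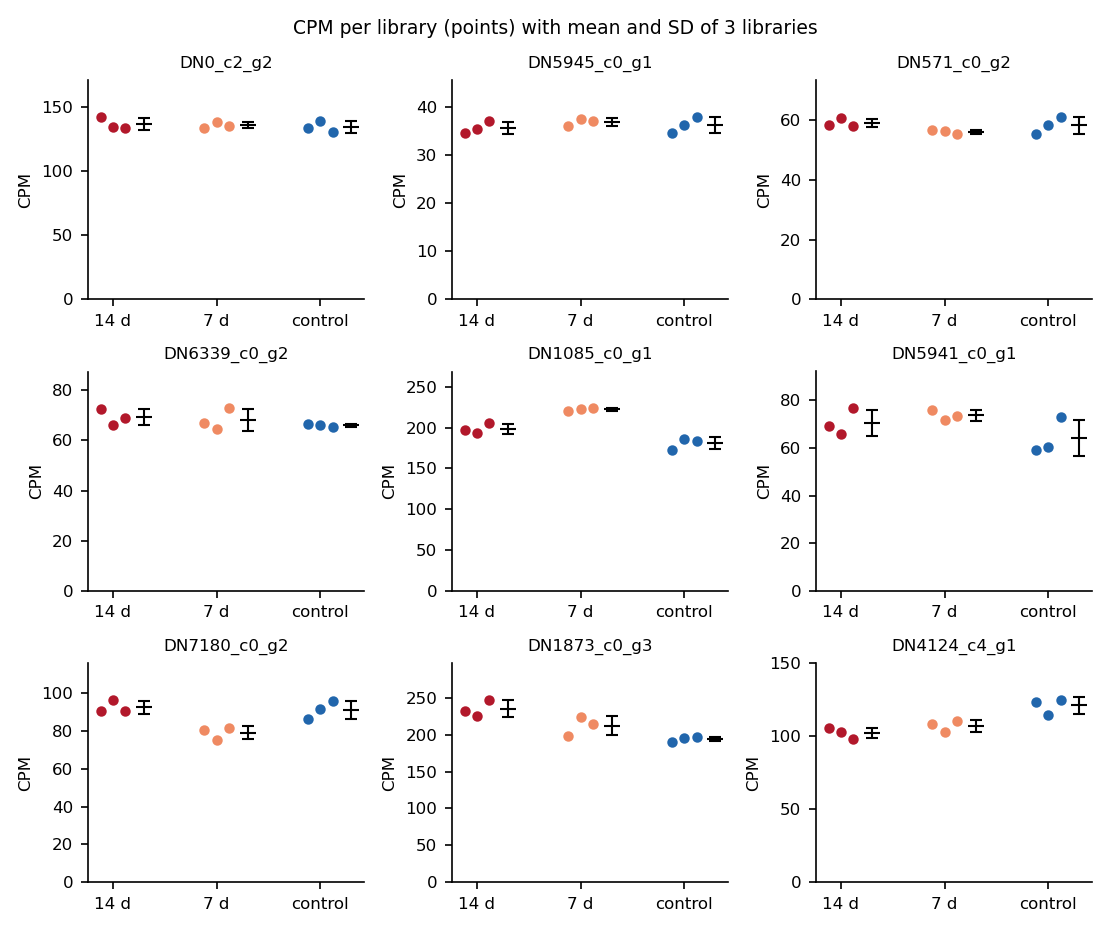
CPM of 9 members in the 14 d, 7 d and control libraries (points), with the mean and SD of 3 libraries in black beside them and axes that start at 0. The first 4 panels are the steadiest members, with ratios of 1.09 to 1.13, and the other 5 are those at the limit or with the most extreme difference from the controls.

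Across all members, the log2 difference of group means from control ran from -0.24 to 0.28 at 14 d, with a median of 0.02, and from -0.20 to 0.30 at 7 d, with a median of 0.05. Between 14 d and 7 d it ran from -0.30 to 0.23. The difference was no larger than 0.1 in size for 97 members at 14 d and for 98 at 7 d, and larger than 0.2 for 6 at 14 d and 13 at 7 d. The median size, 0.08 at 14 d and 0.09 at 7 d, was about that of the median standard error of such a difference, 0.08 at both times. Both differences use the same control libraries. Group means of a member differed by a median ratio of 1.09 between the highest and the lowest group. Under TMM scaling, edgeR's correction for composition, the median at 14 d was -0.05 and that at 7 d 0.03, so the sign at 14 d depends on the scaling. Within groups, the median ratio of highest to lowest library was 1.103 at 14 d, 1.11 at 7 d and 1.14 in the controls.

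With p-values adjusted by Benjamini-Hochberg over all 62564 genes that had enough counts, the quasi-likelihood test of edgeR called 0 of the 167 members at 14 d against control, where it called 16.4% of all tested genes and 27.1% of the level range. At 7 d against control it called 0 members, with 25.2% of all tested genes and 39.1% of the level range. At 14 d against 7 d it called 0 members, with 11.3% of all tested genes and 19.4% of the range. An unadjusted p under 0.05 was reached by 6, 2 and 10 members in these comparisons, and DESeq2 called 0 in each. The rule used the same libraries and leaves little room for a call, so these counts say nothing further about the members. With libraries scaled by their totals only, or without 14 d replicate 3, edgeR called 1 member, TRINITY_DN1085_c0_g1, as higher at 7 d. Groups of 3 libraries did not overlap for 26 members at 14 d against control (44.8% of the level range), for 34 at 7 d against control (57.1%) and for 37 at 14 d against 7 d (43.8%).

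The libraries did not contribute evenly to the spread. Control replicate 1 was the lowest of the 9 libraries for 52 members, and the next was control replicate 3 with 22. Control replicate 3 was the highest for 37 members, ahead of 26 for 7 d replicate 2. The median member stood at 1.01, 1.01 and 0.976 of its own mean in 14 d replicates 1 to 3, at 1.01, 1.02 and 1.01 in the 7 d libraries, and at 0.952, 0.981 and 1.01 in the controls. This order depends on the scaling: under TMM the lowest median was 0.926 in 14 d replicate 3, and control replicate 1 stood at 1.001. Together the members took 1.46 ± 0.0238% of all counts at 14 d, 1.49 ± 0.0144% at 7 d and 1.44 ± 0.0397% in the controls (SD, n = 3 each). When the rule was applied without control replicate 1, 274 genes met it, and without 14 d replicate 3, the 14 d library farthest from the other 2, 224 did. Leaving out any other single library gave 182 to 235 genes.

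**Figure D3:**
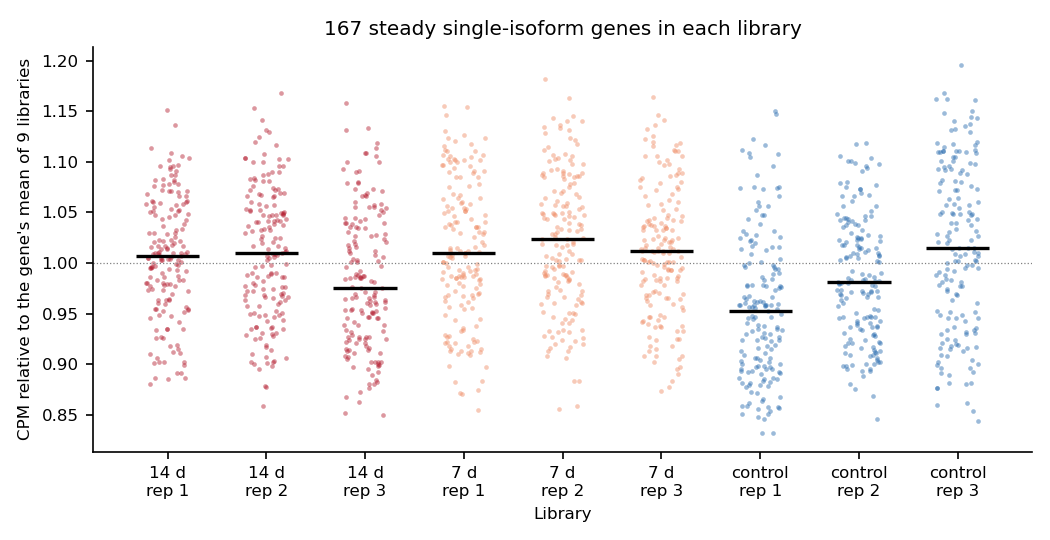
CPM of each of the 167 members relative to its own mean of 9 libraries (vertical axis) in every library (horizontal axis), with 14 d in red, 7 d in orange and controls in blue, and the median member as a black bar. The medians run from 0.952 in control replicate 1 to 1.02 in 7 d replicate 2.

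To set genes chosen for steadiness in 2 groups beside the third group, the rule was applied to 2 groups at a time. The ratio was then read over all 9 libraries, which include those that chose the genes. A member meets the ratio and isoform limits in any 2 groups, so members recur below wherever they also meet the level criteria. Adding libraries can only lower the share within the limit, in the level range too. The shares below therefore do not show how steady the genes are in the added libraries alone. With the 14 d group left out, 359 genes met the rule in the 7 d and control libraries, and 170 of them (47.4%) stayed within the 1.3 limit once the 14 d libraries were added. In the level range 20.6% of genes were within the limit in the 7 d and control libraries, and 52.3% of those genes stayed within it in all 9. With the 7 d group left out, 405 genes met the rule, and 170 (42.0%) stayed within the limit in all 9 libraries. In the level range 24.1% of genes met the limit in the 14 d and control libraries, and 44.6% of those met it in all 9. With the controls left out, 599 genes were steady between 14 d and 7 d, and 171 (28.5%) stayed within the limit once the controls were added. In the level range 31.5% of genes met the limit in the salt libraries, and 34.1% of those met it in all 9. In the last case the upper bound of 500 CPM was applied to the mean of the salt libraries.

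The spread over all 9 libraries was counted over all chosen genes. These include the genes that stayed within the limit, 170 with 14 d left out, 170 with 7 d left out and 171 with the controls left out. The counts within 1.5 therefore do not show how far the genes that left the limit moved. No such counts are given for the level range. Of the 359 genes, 305 had a ratio of at most 1.5 over all 9 libraries, and 9 had a ratio above 2. Of the 405 genes, 344 were within 1.5, and 9 were above 2. Of the 599 genes that were steady between the salt times, 417 were within 1.5, and 27 were above 2, up to a ratio of 5.04. The group left out differed from the mean of the 6 others by a median of -0.02 on the log2 scale for 14 d, 0.09 for 7 d and -0.09 for the controls. By the sign of this difference, the controls were lower for 390 of the 599 genes and higher for 209, genes with overlapping groups included. These signs are under total counts and were not counted under TMM. Under TMM scaling the shares within the limit were 42.9% with 14 d left out, 39.8% with 7 d left out and 32.03% with the controls left out. The differences between these shares were not tested, and the 3 choices share libraries. The number of genes within the limit was nearly the same in each choice, so the shares differ mainly by how many genes were chosen.

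**Figure D4:**
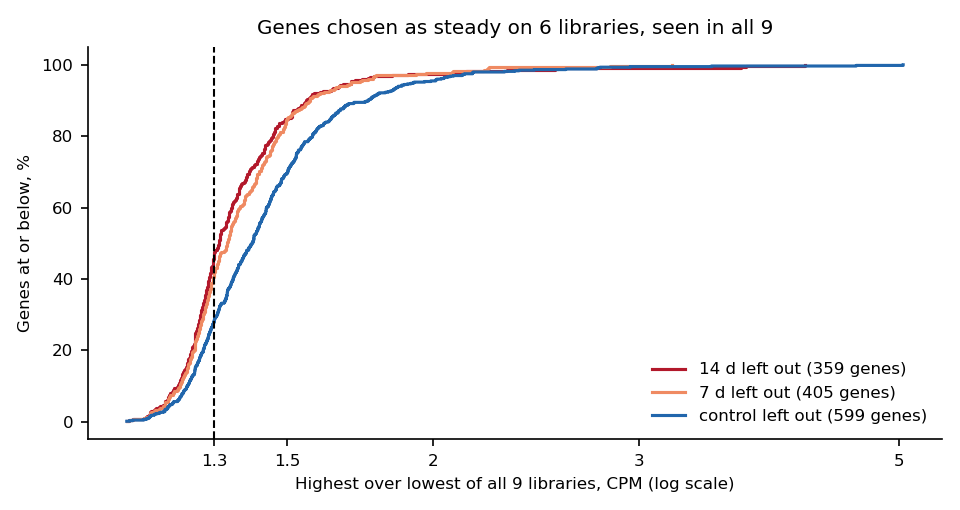
Share of genes (vertical axis, %) with at most a given ratio of highest to lowest over all 9 libraries (horizontal axis, log scale), for genes chosen as steady without the 14 d libraries (red), without the 7 d libraries (orange) or without the controls (blue). At the dashed limit of 1.3 the curves stand at 47.4%, 42.0% and 28.5%.

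The second property of the members is their single isoform. In the table used here 113 members had 1 row, 29 had 2 isoforms, 12 had 3, and 13 had 4 to 7. The members thus had a median of 1 isoform, and the 613 genes of the level range that were as steady but had no such leading isoform had a median of 4. A single row does not mean that the assembler saw 1 isoform: 79 of the 113 one-row members (69.9%) carry an isoform number above 1, as in TRINITY_DN571_c0_g2_i33, and the isoforms with the other numbers were not analysed here. In the level range 728 of 1279 one-row genes (56.9%) carried such a number.

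Of the 54 members with several rows, 53 had counts on more than the leading isoform. Their leading isoform held a median of 94.1% of the gene's counts at 14 d, 95.6% at 7 d and 94.6% in the controls. The lowest share in any library was 85.2%, in TRINITY_DN6977_c0_g1 and in TRINITY_DN333_c0_g1. Genes just below the bound that met all other criteria were TRINITY_DN2873_c0_g1 at 84.6% and TRINITY_DN2601_c0_g2 at 84.5%.

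Inside the bound the isoform mixture of some members differed between salt and control libraries although their sum met the 1.3 limit. In TRINITY_DN4144_c0_g1 the leading isoform held 93.5, 92.7 and 94.4% at 14 d, 95.5, 95.8 and 96.7% at 7 d, and 90.2, 86.2 and 87.6% in the controls, so that all 6 salt libraries lay above all 3 controls. Its minor isoform i6 had 3.74, 4.56 and 2.55 CPM at 14 d, 2.17, 1.29 and 1.06 CPM at 7 d, and 5.20, 8.62 and 10.5 CPM in the controls, and was lowest at 7 d. In TRINITY_DN6977_c0_g1 the leading share was 90.8, 92.6 and 93.4% at 14 d, 94.7, 92.8 and 94.9% at 7 d, and 87.1, 85.2 and 90.9% in the controls. Here salt and control overlapped, with 90.82% in 14 d replicate 1 and 90.94% in control replicate 3. None of the tested minor isoforms of this gene was called. TRINITY_DN333_c0_g1 went the other way, with 93.1, 90.6 and 89.0% at 14 d, 88.1, 85.2 and 85.5% at 7 d, and 94.2, 93.9 and 95.9% in the controls, without overlap between salt and control. Its sum, by contrast, overlapped between the groups, with 66.4, 63.5 and 66.3 CPM at 14 d, 71.9, 66.0 and 75.4 CPM at 7 d, and 76.4, 63.6 and 78.1 CPM in the controls. These genes and isoforms, other than TRINITY_DN6977_c0_g1 and TRINITY_DN333_c0_g1, were picked out after their values had been seen.

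TRINITY_DN15305_c0_g1 held 4 minor isoforms, each called as higher in salt in at least 1 comparison. Isoform i7, called at both times, had 5.87, 3.36 and 3.21 CPM at 14 d, 3.69, 4.37 and 4.41 CPM at 7 d, and 1.92, 0.790 and 0.986 CPM in the controls. In TRINITY_DN4798_c0_g1 the minor isoform i8 had 0.220, 0.598 and 0 CPM at 14 d, 0.362, 0.143 and 0.456 CPM at 7 d, and 4.99, 3.30 and 2.18 CPM in the controls, and was near the level of 3 counts in the salt libraries. In a fit over all 98906 tested transcripts, 72 minor isoforms of members were tested. At 14 d against control 6 were called (background 11.2%), at 7 d against control 9 (background 19.5%), and at 14 d against 7 d 0 (background 6.64%). The 12 isoforms called in any comparison belonged to 8 members, or 15.1% of the 53. Of the 613 steady genes without a leading isoform, 183 (29.9%) had a called isoform. The 613 had a median of 4 isoforms, and 29 of the 54 members with several rows had 2. More isoforms give more chances of a call, so these shares are not like for like. The rule bounds the minor isoforms too, so these counts are a description, and isoforms of 1 gene share reads, which makes a value for an isoform less certain than one for its sum.

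Genes that the rule did not take are described next, as the members' neighbours in the assembly. Identifiers that are alike up to the gene number mark assembled genes built from 1 cluster of overlapping reads, which can hold related gene copies, alleles or fragments of 1 gene. The members lay in 163 such clusters. Of the members, 115 had at least 1 other assembled gene in their cluster, 229 genes in all besides the members. Reads that fit both a member and a neighbour could have been divided between them, so members with neighbours are less certain than those without.

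The neighbours of at least 30 CPM, as counted here, were steady about as often as genes of the level range. Cluster mates that were members themselves, in the 4 clusters with 2 members, were left out of them. The level range, by contrast, includes the members, so the shares below are not like for like. Of the 76 neighbours with a mean of at least 30 CPM, 9 were within the 1.3 limit, or 11.8%, next to 10.8% of the level range. The median ratio of the 76 was 1.49, next to 1.65 in the level range. At 7 d against control, edgeR called 30 of the 76 (16 higher, 14 lower), a share of 39.5% next to 39.1% of the level range. At 14 d against control it called 16 (6 higher, 10 lower), 21.1% next to 27.1%, and at 14 d against 7 d it called 14, 18.4% next to 19.4%. The share called was thus near that of the level range at 7 d and between the times and lower at 14 d, a difference that was not tested. Among all 200 tested neighbours, 38 were called at 14 d (19.0%, next to 16.4% of all tested genes). At 7 d 56 were called (28.0%, next to 25.2%), and between the times 27 (13.5%, next to 11.3%). For the 53 members whose cluster held a called neighbour, a steady gene and a salt-responsive gene stood in 1 cluster. No such count for the clusters of other genes is given, so the 53 have no background.

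The 4 called neighbours of at least 30 CPM with the largest changes at 7 d in either direction show the contrast, and were picked by size after their values had been seen. TRINITY_DN7596_c0_g5 had 194, 47.7 and 1059 CPM at 14 d, 2262, 1126 and 2837 CPM at 7 d, and 0.214, 3.66 and 3.03 CPM in the controls. It rose by 7.47 on the log2 scale at 14 d (edgeR, adjusted p = 0.000455) and by 9.81 at 7 d (edgeR, adjusted p = 5.98e-05), or by 5.69 at 14 d without 14 d replicate 3. The steady member of the same cluster, TRINITY_DN7596_c0_g3, had 42.8, 42.8 and 38.1 CPM at 14 d, 38.7, 40.6 and 42.8 CPM at 7 d, and 38.0, 36.6 and 36.3 CPM in the controls. By CPM from total counts every salt library of this member lay above every control, but narrowly, with 38.1 CPM in 14 d replicate 3 and 38.0 CPM in control replicate 1. TMM scaling, with factors of 1.05 and 0.952 on these library sizes, reverses their order, so that salt and control overlap. In the neighbour 14 d replicate 3 was the highest of its group, and in the member the lowest.

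TRINITY_DN4545_c0_g1 rose to 546, 412 and 732 CPM at 14 d and 848, 642 and 684 CPM at 7 d, against 76.3, 107 and 108 CPM in the controls. Its log2 change was 2.47 at 14 d (edgeR, adjusted p = 6.88e-06) and 2.89 at 7 d (edgeR, adjusted p = 1.26e-06). Its steady partner TRINITY_DN4545_c0_g3 averaged 84.7 ± 0.660 CPM at 14 d, 101.3 ± 1.56 CPM at 7 d and 92.8 ± 12.4 CPM in the controls (SD, n = 3 each), with control replicate 1 at 107 CPM above the other 2 controls.

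Beside the steadiest member of all, TRINITY_DN0_c2_g1 fell to 180, 249 and 178 CPM at 7 d, against 725, 420 and 560 CPM in the controls, a log2 change of -1.52 (edgeR, adjusted p = 0.000234). At 14 d it had 538, 518 and 380 CPM and was not called against control (log2 change -0.32, edgeR, adjusted p = 0.348). TRINITY_DN6592_c0_g1 fell to 25.3, 32.3 and 29.1 CPM at 7 d, against 104.7, 69.2 and 77.4 CPM in the controls, a log2 change of -1.56 (edgeR, adjusted p = 2.93e-05). With 54.6, 61.8 and 52.1 CPM at 14 d its change was -0.65 (edgeR, adjusted p = 0.0165), a call that was lost without 14 d replicate 1 (-0.66) or without control replicate 1 (-0.44). Its partner TRINITY_DN6592_c0_g2 averaged 45.5 ± 0.710 CPM at 14 d, 43.6 ± 3.02 CPM at 7 d and 50.1 ± 1.61 CPM in the controls (SD, n = 3 each), with every salt library below every control by CPM from total counts.

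**Figure D5:**
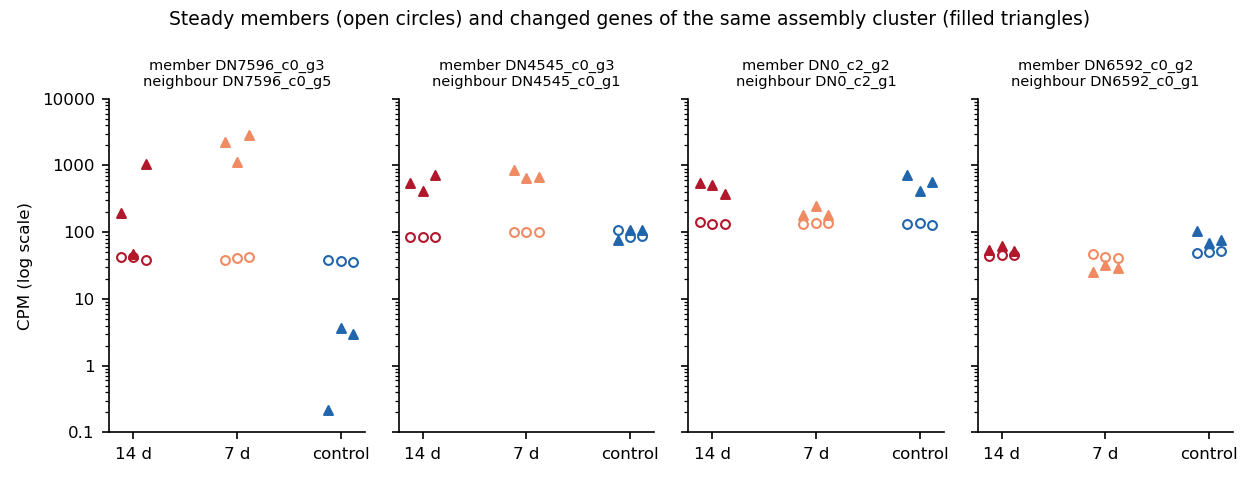
CPM per library (log axis) of 4 members (open circles) and of a called neighbour from the same assembly cluster (filled triangles) at 14 d, at 7 d and in the controls. The members stay within 1.3-fold while TRINITY_DN7596_c0_g5 runs from 0.214 CPM in a control to 2837 CPM in a 7 d library.

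Only 4 clusters held 2 members each. TRINITY_DN3542_c0_g1 and g2 had a correlation of 0.50 between their log2 CPM over the 9 libraries, the pairs in TRINITY_DN1202_c0 and TRINITY_DN1481_c0 had 0.22 and 0.21, and TRINITY_DN1537_c0_g2 and g4 had -0.39. These are descriptions over libraries shared by both genes. In clusters of 2 or more genes, the summed counts of the whole cluster stayed within the 1.3 limit in 71 of 111, with a median ratio of 1.27. The sum includes the member, which the rule bounds, and only 63 clusters held a gene of at least 30 CPM that was not a member. The sums are therefore no separate view of steadiness.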

How the data were processed

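Leaf polyadenylated RNA of 9 seedlings was sequenced, with 1 library per seedling and 3 seedlings per group. The authors deposited estimated counts, one column per library and one row per listed isoform, all whole numbers and with different column totals. Tools listed, with no version, per the submitters' processing notes, are Salmon, HISAT2 and FastQC. The sources used here do not describe the assembly settings.

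Isoform counts were summed per assembled gene and divided by the column total (CPM). The members, lists and tests were chosen with earlier results of these data known. One edgeR 4.0.16 quasi-likelihood model (R 4.3.3, expression filter with minimum count 10 and minimum total 15, TMM scaling, a mean per group, all 9 libraries) was fitted to all genes and, separately, to all transcripts, with calls at a Benjamini-Hochberg adjusted p below 0.05. Standard errors of members' log2 differences came from the SDs of log2 CPM. Alternatives were other scalings, no filter, DESeq2 1.42.0, the replicate number as a block, other limits in the rule, and each library left out. On simulated counts with 1 common dispersion, the fit recovered 57 of 100 genes changed 2-fold and 100 of 100 changed 4-fold. It also called 7 unchanged genes. A gene that was not called could thus have changed 2-fold in this simulation. Only 100 genes of each size of change were altered among 59537, so the share recovered in the real libraries may differ. Members named were the 4 with the lowest ratio, the 3 with most counts among those with several isoforms, those nearest each limit, and those with the most extreme differences from control. Tables and figures used Python 3.11.15, pandas 2.3.3 and matplotlib 3.10.9.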

Additional observations from a re-analysis of the deposited data

Results flagged for a closer look

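TRINITY_DN51538_c0_g1, the member with the most isoforms (7), was, by CPM from total counts, the one member whose salt groups lay on opposite sides of all controls. It had 41.0, 41.3 and 42.8 CPM at 14 d, 47.3, 47.8 and 50.1 CPM at 7 d, and 46.8, 46.9 and 46.7 CPM in the controls. The 14 d mean was lower than the 7 d mean by a log2 difference of -0.21. In the edgeR fit over all genes the gene was not called at 14 d against 7 d (adjusted p = 0.138), and it had been chosen on the same libraries. The 7 d libraries cleared the controls narrowly, and in a check chosen after the data had been seen they overlapped them under TMM scaling (48.4, 47.0 and 50.9 at 7 d, against 49.1, 46.1 and 48.0 in the controls) and under DESeq2 size factors, while the 14 d libraries stayed below the controls.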

How the results depend on the processing

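The number of members depends on the limits: 33 with a ratio limit of 1.2, 387 with 1.4, and 780 with no isoform criterion. It was 152 with TMM scaling and 127 with DESeq2 size factors, and 145 with an isoform share of 90%. With one library left out at a time it was 182 to 274, and, in a choice made after the data had been seen, 359, 405 and 599 without the 14 d, 7 d and control groups. Of the 167 members, 111 stayed within 1.3 under TMM and 99 under DESeq2 size factors, 98 under both and total counts (also added later), and 156 when only the leading isoform was counted. TMM moved library sizes by factors of 0.952 to 1.05 relative to totals, and the members' median log2 difference at 14 d was -0.05 under TMM against 0.02 under total counts, with 61 and 97 members above control. At 7 d it was 0.03 under TMM and 0.05 under total counts. Of 32 log2 differences of named members, 288 alternative values included 28 beyond 1 standard error and 35 of the other sign; no member was called in the fit reported, so none is a reversed call. Members called in any comparison numbered 1 with total counts only, and 0 to 1 without single libraries. Genes called at 14 d against 7 d numbered 3358 to 9429 without single libraries, against 7045, with 3358 without 7 d replicate 3, 3381 without 14 d replicate 2, 4041 without 7 d replicate 1 and 4346 without 14 d replicate 1. The causes were not tested. With total counts only, calls at 14 d against control were 5856 higher and 4374 lower, against 4984 and 5253 with TMM. Deviations of same-numbered libraries from their group means had correlations of -0.13 to 0.17, and those of differently numbered libraries -0.22 to 0.29. With 3 libraries per group this cannot decide whether the numbers pair the seedlings. With the replicate number as a block 9757, 15164 and 6843 genes were called at 14 d against control, 7 d against control and 14 d against 7 d, and 0 members. At 418 counts per library, counting alone gives a coefficient of variation of 4.89%, which limits how small a difference can be seen in members of lowest level.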
